A study of Mus musculus with 15 samples.

Results

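Mouse bone marrow-derived macrophages (BMDMs) left without cytokine were compared with BMDMs treated for 24 h with IL-13 at 40 ng/ml, with 3 libraries on each side, and every gene that passed the filter on low counts was examined in both directions. These 6 libraries are part of a set of 15, in which the other groups received IL-4 at 10 ng/ml, IL-4 with IL-6 at 40 ng/ml, or IL-13 with that dose of IL-6. All cultures, controls included, were grown from bone marrow for 7 days in medium with 20 ng/ml M-CSF. The labels give no strain, sex or age, and nothing says whether the 3 replicates of a group came from separate animals, so the p-values measure the spread between these cultures or RNA samples. Of 53465 genes in the count table, 13938 had enough counts to be tested.

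IL-13 is a type 2 cytokine made by T helper 2 cells and innate lymphoid cells. It binds a receptor of IL-13Rα1 and IL-4Rα, which activates the transcription factor STAT6, while IL-4 can use the same receptor and a second one that pairs IL-4Rα with the common γ chain. In macrophages this signal is known for M2, or alternative, polarization, with resistin-like and chitinase-like proteins, the mannose receptor and chemokines of type 2 inflammation among its markers.

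The 6 libraries held 17001352 to 18842203 counts, and 17623 to 19363 genes with at least 1 count. The macrophage markers *Adgre1*, the gene of a macrophage surface receptor, *Csf1r* (the M-CSF receptor) and *Cd68* were well above background in all 6 libraries, *Csf1r* at 2093, 2205 and 2286 CPM (TMM-normalized read counts, scaled to library size) in the controls and 1857, 1973 and 1958 with IL-13. The IL-13 libraries were less alike than the controls. Their biological coefficient of variation was 10.9%, against 4.48% among the controls, and replicate 1 stood apart from replicates 2 and 3. Genes with implied transcripts of up to 1000 bases were higher in IL-13 replicate 1 than in the mean of replicates 2 and 3 by a median of 0.34 on the log2 scale (367 genes). For genes of more than 8000 bases the corresponding median was -0.26 (1725 genes), whereas in control replicate 1 the same medians were -0.0067 and 0.017. The main counts are therefore also given without this library. Fold changes differed by length too. For the same genes the median log2 fold change of IL-13 over control was 0.29 up to 1000 bases and -0.17 above 8000. Without IL-13 replicate 1 these medians were 0.21 and -0.07, so leaving it out did not remove the difference. The part of transcript length in the results was not tested.

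IL-13 raised 4042 of the 13938 genes tested (29.0%) and lowered 4328 (31.1%), so that 60.1% were called in either direction, at an adjusted p under 0.05. Most changes were small: the median log2 fold change was 0.65 among the raised genes and -0.79 among the lowered ones. Beyond a log2 fold change of 2, the threshold the study used for induction, 255 genes were induced (1.83%), while 788 were repressed below -2 (5.65%). These numbers depend on the filter and the test: they were 167 and 445 with a minimum count of 50, 116 and 455 when the fold was tested against 2 itself, and 342 and 1184 without a filter. Repression at this size was thus called for more genes than induction, and it reached down to the detection floor in 242 genes, which had at most 3 counts in every IL-13 library. In 63 of the 255 induced genes the controls were at that floor. Induced genes were mostly low in the controls, with a median of 0.680 CPM there and 5.19 with IL-13, and the repressed genes went from a median of 3.67 to one of 0.243 CPM. Of the induced genes 214 were protein-coding and of the repressed ones 684. The values of both groups did not overlap in 9349 genes (67.1%). Without IL-13 replicate 1, 3978 genes were raised and 3694 lowered, with 272 above 2 and 866 below -2 among 14286 tested. Of the genes called with all 6 libraries, 3741 of the 4042 raised and 3518 of the 4328 lowered genes kept their direction and call without it, as did 253 of the 255 and 783 of the 788.

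**Figure D1:**
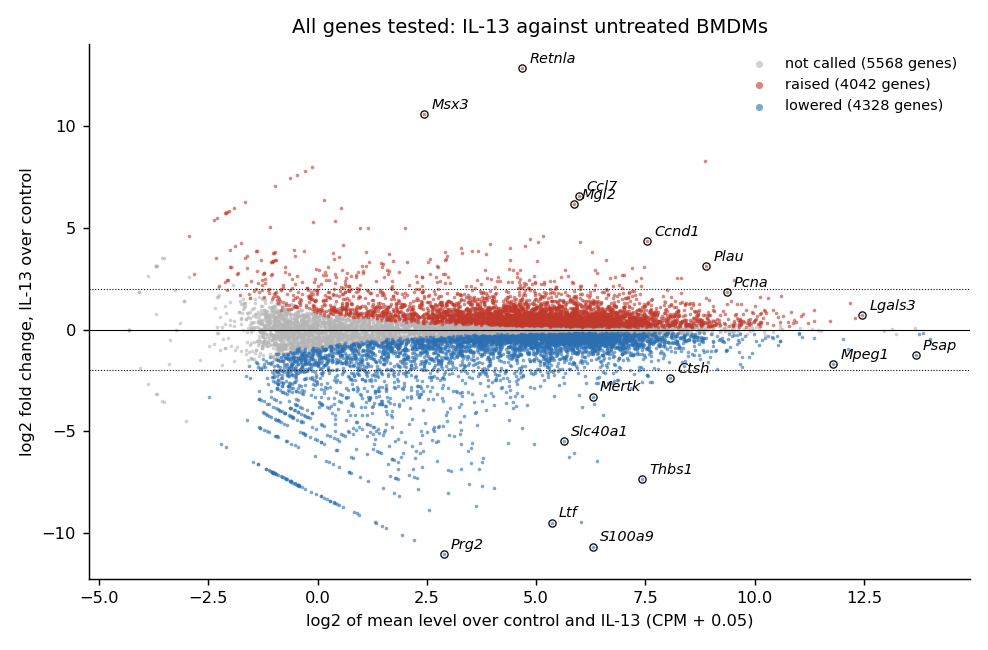
Log2 fold change of IL-13 over control (vertical axis) against the log2 of the mean level in CPM (horizontal axis) for 13938 genes, with raised genes in red, lowered genes in blue and genes that were not called in grey; dotted lines mark 2 and -2. The genes named on the plot include *Retnla*, *Msx3* and *Ccl7* at the top and *S100a9*, *Ltf* and *Prg2* at the bottom, and for genes with no counts in one group the fitted value depends on a prior count and is no measure of size.

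Among the M2 markers, resistin-like and lectin genes changed strongly. *Retnla* (ENSMUSG00000061100, chr16:48842551-48844461 on the plus strand of GRCm38), encoding the secreted FIZZ1 (RELMα), had no count in any control library and 56.2, 49.8 and 47.5 CPM with IL-13, which makes it at least 313-fold higher when each control library is set to a floor of 3 counts. The C-type lectin *Mgl2* (CD301b) went from 1.77, 1.77 and 1.23 to 107, 128 and 113 CPM, a log2 fold change of 6.17 ± 0.18 (SE, adjusted p = 6.3e-14), and its neighbour in function *Clec10a* (CD301a) from a mean of 17.1 to 38.6 CPM (1.18 ± 0.13, adjusted p = 8.1e-07). *Mrc1*, which encodes the mannose receptor CD206, had 191, 203 and 195 CPM in the controls and 401, 578 and 509.7 with IL-13, and its rise was 1.34 ± 0.10 (adjusted p = 6.2e-09). For none of these genes did the groups overlap.

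Other M2 markers that rose were *Flt1*, a VEGF receptor (4.62 ± 0.23), *Cdh1*, encoding E-cadherin (3.79 ± 0.11), *Tmem26* (3.37 ± 0.14), the cationic amino acid transporter *Slc7a2* (2.78 ± 0.15), *Fn1*, encoding fibronectin (2.38 ± 0.18), and the scavenger receptor *Cd163* (1.64 ± 0.16). *Ch25h*, the cholesterol 25-hydroxylase, had 2.84, 2.03 and 1.39 CPM with IL-13 against a single count in the 3 control libraries, a ratio of 114-fold (95% counting interval 20.1 to 4556). The eosinophil-associated ribonuclease *Rnase2a* rose by a ratio of 47.3-fold (95% counting interval 12.8 to 396). Such intervals cover counting error only. In all, 21 of the 34 markers tested rose and 9 fell, against 29.0% and 31.1% of all genes, and the median log2 fold change was 1.12 against -0.02 over all genes.

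Not all markers moved together. *Chil3*, which encodes the chitinase-like protein YM1, had 178, 186 and 167 CPM in the controls and 193, 198 and 179 with IL-13, so that the groups overlapped and the difference of 0.10 ± 0.07 was not called (adjusted p = 0.21). The markers that fell were *Cd209a*, a relative of DC-SIGN that had no count with IL-13, *F13a1* (-3.86 ± 0.23), *Ear2* (-2.20 ± 0.24), the chemokine *Ccl22* (-1.77 ± 0.33), transglutaminase 2 (*Tgm2*, -1.65 ± 0.10), the β-glucan receptor *Clec7a* (-1.04 ± 0.07), *Vegfa* (-0.51 ± 0.18), *Atp6v0d2* (-0.47 ± 0.06) and the cyclooxygenase *Ptgs1* (-0.30 ± 0.08). The call of *Vegfa* was lost without IL-13 replicate 1 (adjusted p = 0.11) and without control replicate 2 or 3 (0.061 and 0.076). *Ccl22* was at 5.26, 6.10 and 4.10 CPM in the controls and at 1.77, 1.52 and 1.24 with IL-13. *Clec7a* went from 607, 682 and 639.8 to 317, 319 and 301 CPM, also without overlap.

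**Figure D2:**
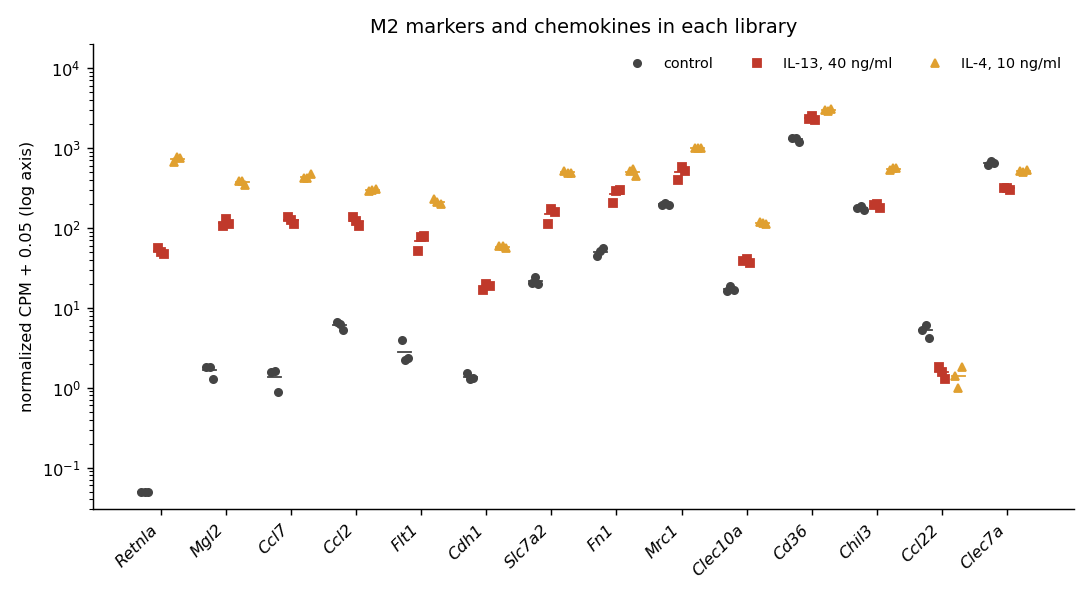
Normalized CPM plus 0.05 (vertical log axis) of 14 genes in each library of the control (circles), IL-13 (squares) and IL-4 (triangles) groups, with short lines at the means of 3. *Retnla* to *Cd36* are higher in every IL-13 library than in every control library, *Chil3* overlaps, and *Ccl22* and *Clec7a* are lower.

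The promoter of *Retnla* is shown because it holds a STAT-type palindrome, the motif bound by dimers of activated STAT6. The 250 bases before its RefSeq start (chr16:48842359-48842608, plus strand, GRCm38.p6) are given 5′ to 3′ with the match in capitals (TTC and GAA with any 4 bases between them). The match lies 136 to 145 bases before that start. The gene position given above is from GENCODE, and its start lies inside this window.
Retnla: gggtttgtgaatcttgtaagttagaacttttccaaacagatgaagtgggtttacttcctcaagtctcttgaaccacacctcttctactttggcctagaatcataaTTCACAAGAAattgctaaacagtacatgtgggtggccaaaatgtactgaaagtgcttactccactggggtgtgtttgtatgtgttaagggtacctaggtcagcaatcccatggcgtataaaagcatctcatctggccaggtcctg
This motif, which reads the same on both strands, was found in 5.82% of the 9984 tested genes with a promoter in the RefSeq table and in 6.76% of all 27025 genes there. It was present in 8 of 168 induced genes (4.76%) and in 36 of 558 repressed ones (6.45%). Among the M2 markers, 3 of 13 raised genes with a promoter had it (*Retnla*, *Pdcd1lg2* and *Tmem26*) and 3 of 11 of the others.

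The receptor chains for IL-13 fell, and inhibitors of cytokine signalling went in both directions. *Il13ra1*, the IL-13-binding chain, went from 26.6, 25.4 and 25.8 CPM in the controls to 2.84, 5.07 and 3.40 with IL-13, and fell by 6.90-fold (log2 fold change -2.79 ± 0.18, adjusted p = 6.4e-10). The shared chain *Il4ra* fell less, from 87.4, 91.3 and 92.2 to 49.6, 51.6 and 51.7 CPM (-0.82 ± 0.07, adjusted p = 4.1e-08), and the common γ chain *Il2rg* fell by 0.65 ± 0.13 on the log2 scale. The kinases *Jak1*, *Jak2*, *Jak3* and *Tyk2* fell by small amounts, between -0.23 for *Jak1* and -0.49 for *Jak3*, and without IL-13 replicate 1 *Jak1* and *Jak2* were not called (adjusted p = 0.18 and 0.21), nor was *Jak2* without control replicate 1 or 2 (0.063 and 0.061) or either gene without the filter on low counts (*Jak1* 0.081 and *Jak2* 0.094). Of the inhibitors, *Socs1*, which acts on JAK kinases, rose and was at 1.04, 1.11 and 0.898 CPM in the controls and 12.2, 9.46 and 9.33 with IL-13 (3.33 ± 0.22), and its relative *Cish* went from a mean of 0.331 to 1.13 CPM (1.76 ± 0.41). The adaptor *Dok2* rose from 36.2, 42.1 and 32.1 to 339, 299 and 315 CPM (3.11 ± 0.09, adjusted p = 6.5e-14). *Socs2* (-0.64 ± 0.19, not called without control replicate 2, adjusted p = 0.054) and the phosphatases *Ptpn1* (-0.96 ± 0.06) and *Ptpn6* (-0.35 ± 0.07) fell, and *Socs3* fell from 6.57, 9.48 and 10.2 to 1.66, 1.13 and 1.03 CPM (-2.77 ± 0.21, adjusted p = 6.1e-09). *Stat6* itself rose slightly (0.22 ± 0.07, adjusted p = 0.011), while *Stat3* fell (-0.90 ± 0.08). Of 21 genes of the pathway, 4 rose (19.0%, against 29.0% of all genes) and 17 fell (81.0%, against 31.1%). Without IL-13 replicate 1, 14 were called lower, and 15 without the filter.

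The chemokine genes *Ccl2*, *Ccl7*, *Ccl8* and *Ccl12* rose, and most chemokine receptors fell. *Ccl7* went from 1.51, 1.55 and 0.841 CPM to 135, 127 and 111 (6.57 ± 0.20, adjusted p = 6.5e-14) and *Ccl2* from 6.62, 6.21 and 5.22 to 136, 123 and 107 (4.34 ± 0.14, adjusted p = 1.6e-13). No treated library of either gene came near a control. *Ccl8* and *Ccl12* had no count in any control and a mean of 1.74 and 0.922 CPM with IL-13, which made them at least 10.6-fold and 5.63-fold higher. The eosinophil attractant *Ccl24* rose from a mean of 0.183 to 1.16 CPM (2.63 ± 0.49), and *Ccl9* by 0.72 ± 0.07. *Ccl2*, *Ccl7*, *Ccl8* and *Ccl12* are alike in sequence and can share reads, so the division between them is uncertain. *Cxcl16* (-1.61 ± 0.14) and *Cxcl5* (-2.94 ± 0.46) fell. Of 23 ligands tested, 8 rose (34.8%) and 6 fell (26.1%), so the family as a whole was called at about the shares of all genes (29.0% and 31.1%).

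Of 14 chemokine receptors 10 fell (71.4%, against 31.1% of all genes) and 2 rose (14.3%, against 29.0%). The list holds receptors of other cells too: *Cxcr2* and *Ccr7* are also in the granulocyte and dendritic cell marker lists, of which 15 of 16 and 9 of 11 genes fell, and the part of such cells in the count was not tested. *Cxcr4*, the receptor for CXCL12, went from 193, 189 and 199.7 to 33.8, 35.2 and 36.3 CPM (-2.47 ± 0.07, adjusted p = 2.3e-14), *Ccr2* from 81.7, 80.9 and 83.9 to 17.7, 20.9 and 17.7 (-2.13 ± 0.12) and *Cx3cr1* from 136, 129 and 146 to 41.0, 36.7 and 39.5 (-1.81 ± 0.12). The neighbouring gene *Wdr48* overlaps *Cx3cr1* on the other strand. *Ccr7* fell from 8.44, 8.87 and 7.97 CPM to 0.107, 0 and 0.0515, a ratio of 157-fold (95% counting interval 53.3 to 763). The 2 that rose were *Ccr1* (0.48 ± 0.08) and *Ccr3*, the eotaxin receptor, which rose from 1.20, 1.27 and 0.898 to 17.6, 21.2 and 15.8 CPM (4.0 ± 0.16, adjusted p = 2.2e-12).

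Several genes outside these families were among the 15 largest rises. *Pla2g5*, a secreted phospholipase A2, rose from a mean of 0.105 to 3.73 CPM (5.01 ± 0.37), and *Rgs16*, a regulator of G protein signalling, from 0.233 to 7.65 (4.98 ± 0.25). The membrane protein gene *Emp2* went from 2.08, 1.22 and 1.29 to 29.4, 27.4 and 30.4 CPM (4.23 ± 0.16) and *Fxyd2*, which encodes a regulator of the sodium pump, from 2.81, 2.55 and 3.25 to 59.2, 44.8 and 46.7 (4.13 ± 0.18). *Stxbp6* rose as well (4.17 ± 0.32). Genes with the controls at the floor included the homeobox gene *Msx3*, with no control count and 9.64, 12.0 and 10.5 CPM with IL-13 (at least 65.4-fold higher). *Sema3c*, which encodes a semaphorin, rose by 4.98 ± 0.34 and the long non-coding RNA *Gm807* by 3.86 ± 0.49. The potassium channel gene *Kcnd3* was higher by a ratio of 76.4-fold (95% counting interval 20.8 to 637) and *Map2*, encoding a microtubule-associated protein, by 46.0-fold (95% counting interval 15.4 to 226). The claudin gene *Cldn11* had no control count and was at least 9.35-fold higher.

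Transcription regulators changed in both directions, with 24 of 62 raised (38.7%) and 23 lowered (37.1%), near the 29.0% and 31.1% of all genes, and their median of 0.02 was close to the -0.02 of all genes. *Id1*, an inhibitor of basic helix-loop-helix factors, rose from 3.13, 3.05 and 3.20 to 76.4, 55.0 and 57.2 CPM (4.33 ± 0.19, adjusted p = 7.4e-12) and *Myc* from 11.8, 11.6 and 11.9 to 94.0, 85.9 and 88.9 (2.93 ± 0.07, adjusted p = 9.5e-15). *Klf4* (2.25 ± 0.10), *Egr2* (1.60 ± 0.08), *Irf4* (0.96 ± 0.13) and *Pparg* (0.32 ± 0.08), which take part in M2 polarization, also rose. *Prdm1*, encoding BLIMP-1, fell from 31.6, 31.6 and 34.1 to 3.59, 5.46 and 4.64 CPM (-2.83 ± 0.14), and *Spic*, a factor of iron-recycling macrophages, from a mean of 4.69 to 0.0888 CPM (-5.61 ± 0.45). *Kdm6b*, which encodes the histone demethylase JMJD3, fell from 10.2, 10.6 and 9.59 to 3.27, 3.83 and 2.63 CPM (-1.65 ± 0.17).

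The cell cycle genes split by phase. Genes of the G1/S transition and of DNA replication rose almost as a block: 55 of 58 were raised (94.8%, against 29.0% of all genes), 1 was lowered (1.72%, against 31.1%), and the median log2 fold change was 1.60. Of 68 genes of mitosis and cytokinesis, 41 were lowered (60.3%) and 9 raised (13.2%), with a median of -0.58. The D-type cyclin *Ccnd1* rose most, from 18.8, 16.8 and 16.6 to 309, 378 and 379 CPM (4.35 ± 0.14, adjusted p = 1.8e-13). *Ung*, a uracil-DNA glycosylase, followed with 2.97, 1.88 and 2.47 and 41.2, 39.1 and 38.4 CPM (4.01 ± 0.12, adjusted p = 6.7e-14). The licensing factor *Cdc6* went from 6.51, 5.38 and 5.44 to 41.9, 40.9 and 49.0 CPM (2.92 ± 0.11), and the E-type cyclins *Ccne1* (2.60 ± 0.13) and *Ccne2* (2.59 ± 0.12) rose alike. All 6 subunits of the MCM helicase rose, from 2.07 for *Mcm7* to 2.60 for *Mcm2*. *Mcm6* was at 89.8, 89.2 and 85.8 CPM in the controls and 527, 516 and 495 with IL-13. *Pcna*, the sliding clamp, went from 299, 297 and 267 to 1141, 991 and 944 CPM (1.83 ± 0.10, adjusted p = 5.2e-11). The CDK inhibitors differed, since *Cdkn1a* (p21) rose (2.55 ± 0.10) and *Cdkn1b* (p27) fell (-0.99 ± 0.09).

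On the mitotic side *Ccnb2*, a B-type cyclin, went from 74.4, 66.6 and 68.0 to 15.9, 12.7 and 16.7 CPM (-2.20 ± 0.14, adjusted p = 4.3e-10). *Cdc20*, an activator of the anaphase-promoting complex, fell from 65.0, 58.3 and 57.3 to 17.0, 15.8 and 18.0 (-1.83 ± 0.11, adjusted p = 3.1e-10). *Cenpf* (-1.86 ± 0.13), *Ube2c* (-1.64 ± 0.12), *Ccnb1* (-1.44 ± 0.12), *Plk1* (-1.15 ± 0.12) and the proliferation marker *Mki67* (-1.07 ± 0.15) fell too. *Top2a*, with a mean of 221 and 210.0 CPM, and *Aurkb*, with 39.9 and 38.4, were not called, and *Cdk1* rose by 0.28 ± 0.09. The exception in size was *Mybl2*, a transcription factor of the S and G2 phases, which rose from 6.98, 8.76 and 8.08 to 41.1, 38.1 and 42.4 CPM (2.35 ± 0.12). Without IL-13 replicate 1 the counts were 55 raised for G1/S and 38 lowered for mitosis.

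**Figure D3:**
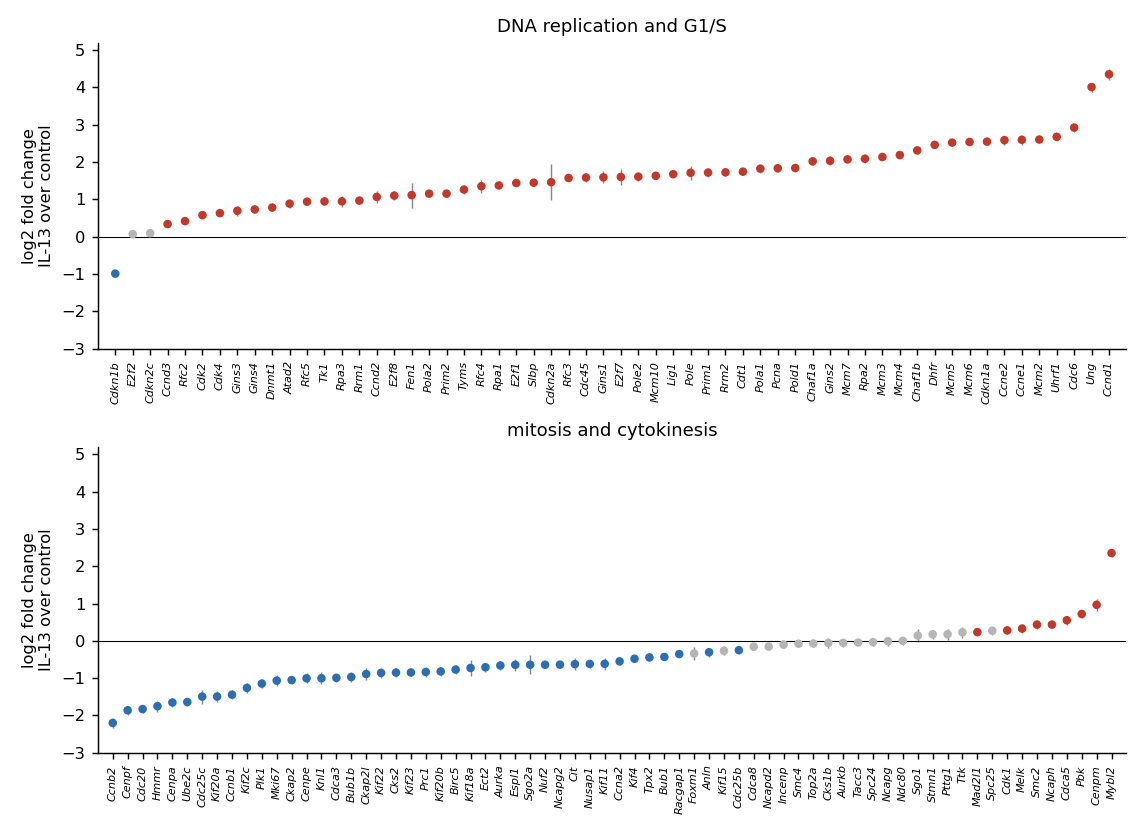
Log2 fold change of IL-13 over control (vertical axis, bars are SE) for each of 58 genes of DNA replication and G1/S (top) and 68 genes of mitosis and cytokinesis (bottom), ordered by value, with raised genes in red, lowered in blue and genes that were not called in grey. Of the upper genes 55 lie above 0 and are called, and of the lower genes 41 are called below 0.

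The promoters of *Mcm6* and *Cdc20* are shown as members of the raised and the lowered cell cycle list that hold the motif known for each. In *Mcm6* (chr1:128359706-128359955, minus strand) the capitals mark TTTGGCGC, 1 of 2 octamers searched for E2F (with TTTCCCGC, both strands). In *Cdc20* (chr4:118437344-118437593, minus strand) they mark the cell cycle homology region, searched as TTTGAA on both strands. Each line is the 250 bases before the start, 5′ to 3′.
Mcm6: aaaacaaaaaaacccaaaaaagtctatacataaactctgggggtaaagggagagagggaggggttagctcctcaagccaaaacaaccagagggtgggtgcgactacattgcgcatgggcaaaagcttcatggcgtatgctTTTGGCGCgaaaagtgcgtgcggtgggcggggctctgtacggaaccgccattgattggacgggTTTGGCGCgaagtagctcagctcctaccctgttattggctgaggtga
Cdc20: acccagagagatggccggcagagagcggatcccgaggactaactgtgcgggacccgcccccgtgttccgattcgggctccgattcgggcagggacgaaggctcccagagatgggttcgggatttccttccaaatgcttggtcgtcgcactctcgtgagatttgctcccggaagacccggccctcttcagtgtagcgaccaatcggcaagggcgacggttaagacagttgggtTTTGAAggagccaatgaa
An E2F octamer was found in 9 of the 43 raised G1/S genes with a promoter (20.9%), namely *Cdc6*, *Cdk2*, *Cdkn2a*, *E2f7*, *Gins3*, *Mcm5*, *Mcm6*, *Mcm7* and *Pola1*, against 2.96% of all tested genes. *Cdkn2a* was not called without control replicate 1 or 2 (adjusted p = 0.076 and 0.051). TTTGAA was found in 13 of 37 lowered mitotic genes (35.1%) and in 8 of 20 other mitotic genes (40%), against 13.1% of all tested genes.

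Genes of cell growth rose with the G1/S genes. Of 51 genes of ribosome biogenesis and MYC, 47 rose (92.2%, against 29.0% of all genes) and 2 fell (3.92%, against 31.1%), and the median was 1.08. The nucleolar proteins *Nop58* (24.8, 23.9 and 24.5 against 108, 108 and 105 CPM, 2.13 ± 0.07, adjusted p = 3.0e-13), *Nop56* (1.93 ± 0.08) and fibrillarin (*Fbl*, 1.41 ± 0.12) rose, as did nucleolin (*Ncl*, 0.99 ± 0.05). The MYC antagonist *Mxd1* fell from 29.8, 27.7 and 29.8 to 7.28, 7.15 and 6.96 CPM (-2.03 ± 0.10). In the list of ER stress, ATF4 and serine or one-carbon metabolism 28 of 38 genes rose (73.7%) and 4 fell (10.5%), with a median of 0.65. The ATF4 targets *Asns*, encoding asparagine synthetase (18.3, 19.7 and 17.1 and 103, 94.8 and 87.3 CPM, 2.37 ± 0.09, adjusted p = 1.2e-12), *Trib3* (2.75 ± 0.21) and *Chac1* (3.12 ± 0.28) rose strongly, as did the mitochondrial folate enzyme *Mthfd2* (2.17 ± 0.10) and the serine synthesis enzymes *Phgdh* (1.43 ± 0.10) and *Psat1* (1.85 ± 0.07). Chaperones of the ER rose less: *Hspa5* (BiP) by 0.35 ± 0.07 and *Calr* (calreticulin) by 0.66 ± 0.06. The cystine transporter *Slc7a11* fell from 24.2, 23.8 and 20.3 to 3.64, 8.0 and 5.05 CPM (-2.04 ± 0.20). The amino acid transporter *Slc7a5*, its partner *Slc3a2* being raised by 0.76 ± 0.08, rose from 5.05, 3.88 and 4.88 to 36.3, 38.0 and 36.0 CPM (2.99 ± 0.11).

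Of 25 arginine and polyamine genes 14 rose (56%, against 29.0% of all genes) and 7 fell (28%, near the 31.1%). The arginine transporter *Slc7a1* rose from 14.1, 13.6 and 15.5 to 73.8, 104 and 96.1 CPM (2.66 ± 0.14, adjusted p = 4.6e-11). Ornithine decarboxylase (*Odc1*, 1.73 ± 0.09), spermidine synthase (*Srm*, 2.38 ± 0.12) and spermine synthase (*Sms*, 1.03 ± 0.08), the successive steps from ornithine to spermine, rose as well, and *Sat1*, which acetylates polyamines for export and breakdown, fell from 491, 526 and 493 to 183, 167 and 164 CPM (-1.55 ± 0.09, adjusted p = 1.6e-10). *Ass1*, which acts in making arginine from citrulline, fell by 1.62 ± 0.20 on the log2 scale.

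Of 35 glycolysis and pentose phosphate entries (1 gene is listed under 2 identifiers) 20 rose and 8 fell, 57.1% and 22.9% against 29.0% and 31.1% of all genes. The glucose transporter *Slc2a1* (GLUT1) went from 33.4, 40.7 and 36.2 to 84.4, 106 and 107 CPM (1.43 ± 0.18, adjusted p = 3.1e-06), and *Ldha* (1.17 ± 0.09), *Eno1* (0.90 ± 0.08), *Pkm* (0.66 ± 0.06) and the lactate exporters *Slc16a1* (1.22 ± 0.09) and *Slc16a3* (1.14 ± 0.22) rose. *Ldhb*, the other lactate dehydrogenase subunit, fell from 28.3, 29.4 and 26.5 to 3.91, 2.59 and 3.25 CPM (-3.11 ± 0.16), and the pentose phosphate enzymes *G6pdx* (-0.60 ± 0.06) and *Pgd* (-0.53 ± 0.06) fell. Of 71 genes of the TCA cycle and respiratory chain, 28 were called raised (39.4%, against 29.0% of all genes) and 4 lowered (5.63%, against 31.1%), with a median of 0.20. This median was 0.135 without IL-13 replicate 1 and 0.32 without IL-13 replicate 2. The 28 raised genes dropped to 17 without IL-13 replicate 1 and to 17 without control replicate 3, a share below the 29.0%. They became 35 without IL-13 replicate 2, 36 in a fit of the 6 libraries alone and 38 without a filter on low counts. Members of this list were higher in IL-13 replicate 1 than in replicates 2 and 3 by a median of 0.32, and the part of this library in the result was not tested beyond leaving it out. *Cycs*, encoding cytochrome c, rose by 1.17 ± 0.11. *Idh1*, the cytosolic isocitrate dehydrogenase, fell from 467, 496 and 483 to 157, 169.9 and 162 CPM (-1.56 ± 0.08, adjusted p = 1.8e-11), while the mitochondrial *Idh3a* rose (1.03 ± 0.07).

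Interferon-stimulated genes were mildly higher. Of 51 tested, 30 rose (58.8%, against 29.0% of all genes) and 2 fell (3.92%, against 31.1%), with a median of 0.69. *Isg15*, a ubiquitin-like modifier, went from 6.2, 5.93 and 5.61 to 19.9, 23.3 and 18.3 CPM (1.79 ± 0.35, adjusted p = 3.0e-04) and *Usp18*, which removes it, from 2.81, 4.71 and 4.15 to 15.4, 17.9 and 18.1 (2.14 ± 0.24). *Ifi27l2a* (2.28 ± 0.16) and *Ifi44* (2.58 ± 0.43) rose most, and *Bst2* (tetherin, 1.51 ± 0.15) and *Irf7* (1.43 ± 0.24) rose. The guanylate-binding proteins *Gbp3* (-1.13 ± 0.28) and *Gbp7* (-1.26 ± 0.27) fell. The promoter of *Isg15* (chr4:156200819-156201068, minus strand) is shown as a raised member with the interferon-stimulated response element, searched as 2 copies of GAAA with any 2 bases between them, on both strands. The capitals mark 3 overlapping matches within the 250 bases before the start.
Isg15: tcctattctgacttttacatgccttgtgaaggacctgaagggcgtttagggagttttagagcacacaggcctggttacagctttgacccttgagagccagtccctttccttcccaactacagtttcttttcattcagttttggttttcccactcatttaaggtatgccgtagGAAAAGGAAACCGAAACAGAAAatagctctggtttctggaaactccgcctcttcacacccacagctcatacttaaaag
The motif was in 11 of 20 raised interferon-stimulated genes with a promoter (55%) and in 9 of the 18 others (50%), against 3.41% of all tested genes.

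Lysosomal genes fell broadly. Of 65 tested, 50 fell (76.9%, against 31.1% of all genes) and 6 rose (9.23%, against 29.0%), with a median of -0.46. *Psap*, the precursor of the saposins that help degrade sphingolipids, was at 18066, 19272 and 18461 CPM in the controls and 7816, 7623 and 7872 with IL-13 (-1.26 ± 0.05, adjusted p = 3.5e-12). Among the cathepsins, *Ctsh* fell from 424, 479 and 444 to 96.0, 77.3 and 83.6 CPM (-2.39 ± 0.11, adjusted p = 6.3e-12), *Ctsd* from 5886, 6041 and 5838 to 3566, 2712 and 3009.7 (-0.94 ± 0.12, adjusted p = 5.4e-06), while *Ctsb* fell by 0.46 ± 0.05 and *Ctss* fell by 0.45 ± 0.10. *Ctsl*, by contrast, rose from 1791, 1787 and 1677 to 3731, 3373 and 3286 CPM (0.98 ± 0.08, adjusted p = 9.8e-09). *Lamp1*, a protein of the lysosomal membrane, fell by 0.53 ± 0.06, and the proton pump subunit *Atp6v0a1* rose by 0.91 ± 0.07. The promoter of *Ctsd* (chr7:142387828-142388077, minus strand) is shown as a lowered member with the E-box CACGTG, the core of the element known for lysosomal genes, in capitals and matched at 2 places.
Ctsd: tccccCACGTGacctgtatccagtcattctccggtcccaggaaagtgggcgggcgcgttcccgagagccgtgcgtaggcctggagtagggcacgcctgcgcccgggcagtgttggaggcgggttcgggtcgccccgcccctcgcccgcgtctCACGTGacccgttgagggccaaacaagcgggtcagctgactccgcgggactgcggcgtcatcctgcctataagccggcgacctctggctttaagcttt
The E-box, a palindrome, was found in 13 of 38 lowered lysosomal genes with a promoter (34.2%) and in 2 of the 12 others (16.7%), against 9.93% of all tested genes.

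Genes of antigen presentation and costimulation fell. Of 16 genes of the MHC class II pathway 13 fell (81.2%, against 31.1% of all genes) and 2 rose (*Cd74*, 0.42 ± 0.10, and *Rfxap*, 0.40 ± 0.14). *Rfxap* was not called without IL-13 replicate 1 (adjusted p = 0.10), control replicate 1 (0.064) or control replicate 3 (0.077). *Ciita*, the master regulator of class II genes, went from 12.7, 13.5 and 13.7 to 0.750, 1.69 and 1.03 CPM (-3.53 ± 0.24, adjusted p = 1.3e-09). *H2-Aa* (-1.14 ± 0.11), *H2-Ab1* (-0.76 ± 0.15) and *H2-Eb1* (-1.54 ± 0.14) fell with it. In the costimulation list 21 of 30 fell (70%) and 7 rose (23.3%). *Cd86* fell from 9.27, 11.2 and 9.26 to 1.98, 2.53 and 1.44 CPM (-2.32 ± 0.22) and PD-L1 (*Cd274*) from 69.6, 76.1 and 82.1 to 23.9, 32.1 and 26.4 (-1.47 ± 0.11, adjusted p = 3.4e-09). PD-L2 (*Pdcd1lg2*) rose (1.54 ± 0.30), as did *Cd40* (1.08 ± 0.13) and 4-1BB ligand (*Tnfsf9*, 2.14 ± 0.15).

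Sensing receptors were lower as well, with 13 of 23 pattern recognition and Fc receptors lowered (56.5%, against 31.1% of all genes) and 4 raised (17.4%, against 29.0%). *Tlr2* went from 134, 151 and 145 to 32.3, 26.4 and 27.3 CPM (-2.32 ± 0.10, adjusted p = 6.0e-12), *Tlr9* from 40.9, 38.7 and 44.0 to 3.53, 5.57 and 3.86 (-3.25 ± 0.17) and *Fcgr4* from 74.0, 85.8 and 77.8 to 13.4, 12.9 and 9.43 (-2.73 ± 0.12). *Tlr4*, with a mean of 123 and 107 CPM, was called lower only without IL-13 replicate 2 (adjusted p = 0.039). The receptor for complement C5a (*C5ar1*) rose by 1.07 ± 0.06. Of 35 C-type lectins and sialic acid lectins 20 fell (57.1%) and 8 rose (22.9%), and *Cd33* fell from 117, 107 and 118 to 9.91, 13.4 and 13.2 CPM (-3.22 ± 0.14), in contrast to *Mgl2* and *Mrc1*. In the complement list 7 of 20 genes rose (35%) and 5 fell (25%), near the 29.0% and 31.1% of all genes. The 5 became 3 without IL-13 replicate 1 or 3 or without control replicate 2 or 3, and with a minimum count of 50. *C1qa* rose by 0.84 ± 0.14, and *Vsig4*, a complement receptor, went from a mean of 2.50 CPM to no count with IL-13, at least 15.5-fold lower.

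Receptors that clear dead cells and lipoproteins included genes of both directions, 12 of 34 being raised (35.3%) and 17 lowered (50%), against 29.0% and 31.1% of all genes. The TAM receptors *Mertk* (132, 139 and 156 against 11.2, 16.0 and 16.4 CPM, -3.29 ± 0.15, adjusted p = 7.4e-12) and *Axl* (282, 321 and 333 against 58.9, 62.8 and 68.8, -2.30 ± 0.10, adjusted p = 7.7e-12) fell, while their ligand *Gas6* rose (0.90 ± 0.07). The bridging protein *Mfge8* (-1.91 ± 0.07) and its integrin partner *Itgb3* (-2.61 ± 0.10) fell. The scavenger receptor *Msr1* rose from 185, 188 and 176 to 455, 497 and 442 CPM (1.34 ± 0.06), with *Cd36* (0.86 ± 0.06) and *Anxa1*, encoding annexin A1 (1.55 ± 0.10).

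Of 36 cholesterol genes 22 fell (61.1%) and 3 rose (8.33%), against 31.1% and 29.0% of all genes. The efflux pump *Abca1* went from 187, 199 and 213 to 25.8, 43.8 and 40.3 CPM (-2.45 ± 0.17, adjusted p = 1.9e-09) and its regulator LXRα (*Nr1h3*) fell by 1.13 ± 0.12. The synthesis genes *Hmgcs1* (-0.83 ± 0.10) and *Mvd* (-1.40 ± 0.09) fell, and *Sqle* rose (0.51 ± 0.06). In the list of fatty acid uptake, oxidation and PPAR targets, 20 of 47 fell (42.6%) and 11 rose (23.4%), closer to those shares. *Mgll*, monoacylglycerol lipase, fell from 126, 132 and 114 to 8.94, 8.22 and 9.74 CPM (-3.79 ± 0.11, adjusted p = 3.6e-14), and the fatty acid binding proteins *Fabp4* (-1.97 ± 0.14) and *Fabp5* (-1.36 ± 0.07) fell, whereas lipoprotein lipase (*Lpl*) rose from 2605, 2780.4 and 2536 to 7064, 6363 and 6518 CPM (1.33 ± 0.07, adjusted p = 3.7e-11). *Cpt1a*, the carnitine transferase that admits fatty acids to mitochondria, fell (-0.91 ± 0.10). Eicosanoid genes fell in 15 of 26 cases (57.7%, against 31.1%) and rose in 8 (30.8%), near the 29.0% of all genes. *Alox12*, a platelet-type lipoxygenase, fell from 25.1, 22.2 and 19.3 to 0.214, 0.507 and 0.464 CPM (-5.79 ± 0.33), *Hpgd*, which inactivates prostaglandins, fell by 2.80 ± 0.12, and the cytosolic phospholipase *Pla2g4a* rose by 1.41 ± 0.08.

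Iron and redox genes were lowered in 19 of 38 cases (50%, against 31.1% of all genes) and raised in 4 (10.5%, against 29.0%). The iron exporter ferroportin (*Slc40a1*) fell from 91.2, 109.6 and 89.9 to 1.93, 1.58 and 2.89 CPM (-5.49 ± 0.21, adjusted p = 1.5e-12). Glutathione peroxidase 3 (*Gpx3*) fell from 168, 180.1 and 177 to 9.75, 10.6 and 8.14 (-4.21 ± 0.12, adjusted p = 3.1e-14), and *Cybb*, the catalytic subunit of the phagocyte oxidase, from 1147, 1289 and 1289 to 328, 425 and 397 (-1.69 ± 0.11). *Hmox1*, with a mean of 691 and 742 CPM, and the ferritin heavy chain *Fth1*, with 12478 and 13431, were not called, although *Fth1* was called higher without the filter on low counts (adjusted p = 0.014).

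Of 42 matrix and protease genes 13 rose (31.0%, against 29.0% of all genes) and 20 fell (47.6%, against 31.1%), some by large amounts. The urokinase *Plau* rose from 98.5, 96.3 and 98.2 to 900.3, 824 and 822 CPM (3.12 ± 0.08, adjusted p = 1.4e-14), the collagenase *Mmp13* from 2.50, 2.83 and 2.08 to 53.8, 57.5 and 54.1 (4.48 ± 0.14, adjusted p = 6.9e-14) and *Adam8* from 773, 729 and 753 to 2292, 2370.0 and 2390.2 (1.64 ± 0.06). *Mmp10* had no control count and was at least 7.32-fold higher with IL-13. *Thbs1*, encoding thrombospondin 1, fell from 351, 322 and 348 to 1.61, 1.86 and 2.78 CPM (-7.34 ± 0.18, adjusted p = 1.3e-14). The membrane-bound *Mmp14* fell from 95.3, 109 and 113 to 1.45, 1.30 and 1.34 (-6.27 ± 0.25, adjusted p = 2.3e-12) and the inhibitor *Timp3* from 21.1, 19.7 and 16.4 to 0.214, 0.225 and 0.0515 (-6.83 ± 0.38). Among growth factors 12 of 35 rose and 12 fell, 34.3% each and close to the shares of all genes (29.0% and 31.1%). Of these *Hbegf* (3.29 ± 0.24), *Vegfc* (2.83 ± 0.33) and *Pdgfb* (1.63 ± 0.10) rose and *Hgf*, from 34.7, 32.8 and 38.4 to 3.70, 4.73 and 4.33 CPM (-3.05 ± 0.16), and *Pdgfc* (-3.29 ± 0.23) fell.

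Of 30 adhesion genes 17 fell (56.7%, against 31.1% of all genes) and 8 rose (26.7%, near the 29.0%). The leukocyte integrin chain *Itgal* (LFA-1) went from 170.0, 188 and 198 to 27.4, 30.4 and 32.9 CPM (-2.62 ± 0.12, adjusted p = 1.3e-11) and its ligand *Icam1* fell by 2.01 ± 0.09. The cell fusion list had 10 of 21 raised, among them the fusion proteins *Dcstamp* (1.81 ± 0.26) and *Ocstamp* (3.81 ± 0.29), and 8 lowered, a count that was 5 without IL-13 replicate 2 and likewise without control replicate 2 or 3. These shares, 47.6% and 38.1%, compare with 29.0% and 31.1% of all genes. In the list of cytokines and classical activation genes 17 of 31 fell (54.8%) and 10 rose (32.3%), the latter near the share of all genes. *Acod1*, which makes itaconate, fell from 37.0, 44.6 and 45.8 to 6.75, 6.14 and 2.11 CPM (-3.09 ± 0.55, adjusted p = 1.1e-04), and the subunits of IL-12, *Il12a* and *Il12b*, had means of 1.40 and 1.11 CPM in the controls, against no count and a single count with IL-13. *Vcam1* fell from 39.7, 41.2 and 39.6 to 0.964, 0.676 and 0.876 CPM (-5.57 ± 0.16). *Tnf* rose from 15.2, 18.6 and 17.2 to 35.1, 28.9 and 29.0 (0.87 ± 0.15, adjusted p = 9.8e-05), and the regulatory cytokine *Il10* by 1.48 ± 0.46.

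**Figure D4:**
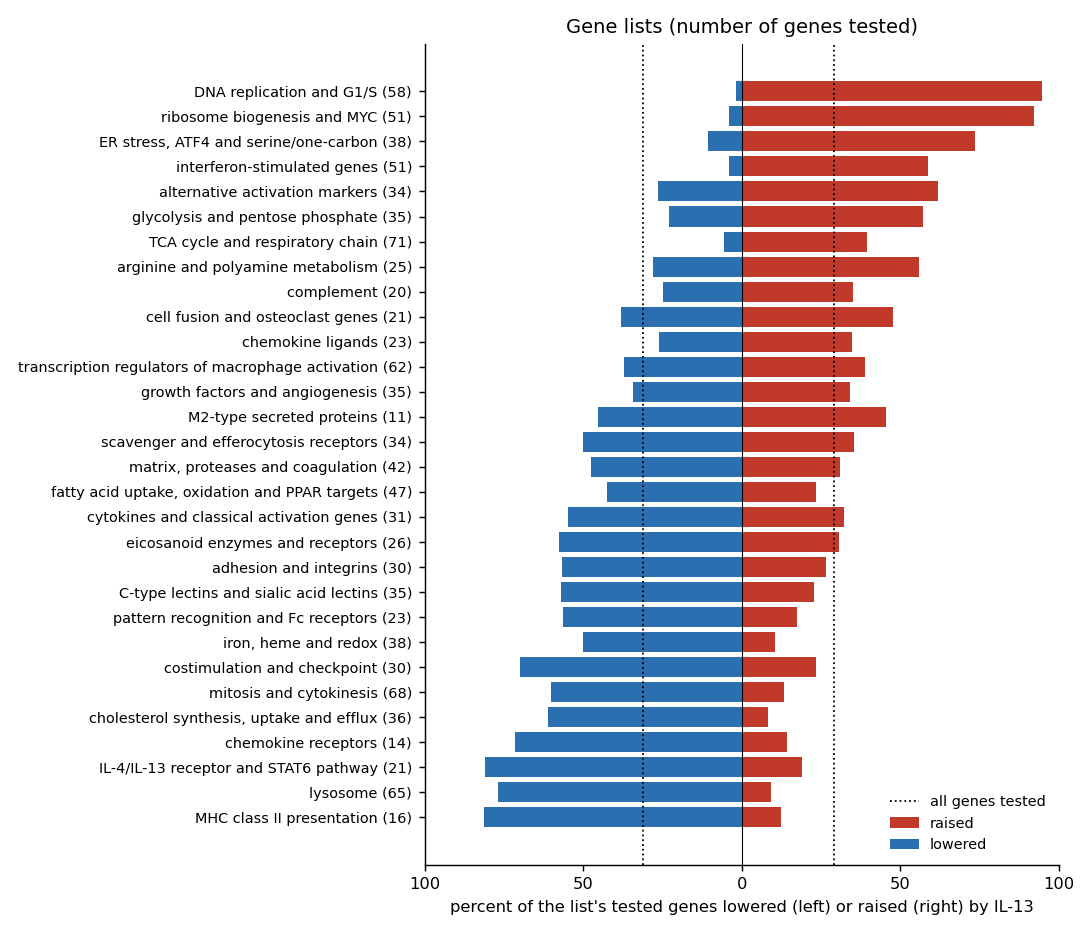
Share of the tested genes of 30 functional lists that IL-13 raised (red, to the right) or lowered (blue, to the left), in percent, with dotted lines at the shares over all 13938 genes, 29.0% and 31.1%. DNA replication and G1/S and ribosome biogenesis lie at the top with over 90% raised, and MHC class II presentation and lysosome at the bottom.

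Per transcript length, in FPKM, the largest gains were in abundant genes. The galectin gene *Lgals3* rose from 2389.6 ± 119 to 3843 ± 372 FPKM (mean ± SD, n = 3) and *Lgals1* from 1072 ± 56.1 to 1832 ± 256. Actin (*Actb*), thymosin β4 (*Tmsb4x*), *B2m*, *Anxa1*, the ribosomal protein gene *Rplp1* and the mitochondrial *mt-Nd1* and *mt-Cytb* were also among the 10 largest. *Tmsb4x* and *Rplp1* were not called without IL-13 replicate 1, with adjusted p = 0.058 and 0.15, nor was *Rplp1* without any 1 of the control replicates, with adjusted p = 0.052 to 0.10, or with a minimum count of 50 (0.053). The largest losses were in *Psap*, from 7075 ± 174 to 2901 ± 47.0 FPKM, lysozyme (*Lyz2*), from 11836 ± 669 to 9914 ± 1069.9 with overlapping CPM values (adjusted p = 0.048, and 0.097 to 0.21 without IL-13 replicate 2 or 3 or control replicate 2 or 3, and 0.055 in a fit of the 6 libraries alone), and the cathepsins *Ctsd*, *Ctss*, *Ctsb* and *Ctsz*. *Mpeg1*, which encodes the pore-forming perforin 2, fell from 1309 ± 29.5 to 398 ± 37.3 FPKM (5266, 5559 and 5489 and 1521, 1777 and 1744 CPM, log2 fold change -1.69 ± 0.07) and the selenoprotein gene *Selenop* from 479 ± 25.5 to 130.2 ± 10.2 (-1.85 ± 0.07). *Itm2b* and *S100a9* were the others.

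Genes of other bone marrow cells made up much of the list of largest falls. *S100a9*, a calprotectin subunit of neutrophils, was at 143, 173 and 153 CPM in the controls and at 0.214, 0.0563 and 0 with IL-13 (-10.66 ± 0.27, adjusted p = 1.2e-13). The granule protein genes *Ngp* (124, 145 and 123 against 0.107, 0.282 and 0.155 CPM) and *Ltf*, encoding lactoferrin (77.7, 90.9 and 76.7 against 0.107, 0.169 and 0.0515), went the same way, by -9.45 ± 0.22 and -9.48 ± 0.23 on the log2 scale. Other granule genes of neutrophils or their precursors, *Lcn2* (-7.77 ± 0.40), *Mpo* (-6.85 ± 0.33), *Ctsg* (-6.83 ± 0.59), *Prtn3* (-6.51 ± 0.26), *Elane* and *Camp*, fell with them. *Elane*, the gene of neutrophil elastase, had 23.6, 26.4 and 23.3 CPM in the controls and 0, 0.113 and 0.0515 with IL-13, a ratio of 454-fold (95% counting interval 155 to 2204). Platelet genes fell too: *Ppbp* from 173, 171 and 155 to 1.29, 2.48 and 1.85 CPM (-6.47 ± 0.19, adjusted p = 6.4e-14) and *Itga2b* from 122, 109.9 and 110.0 to 1.77, 2.31 and 1.08 (-6.06 ± 0.18). The platelet collagen receptor *Gp6*, the platelet protein gene *Mmrn1* (-7.58 ± 0.34), *Cavin2* (-6.94 ± 0.26), *Pde3a* and *Rab27b* (-6.55 ± 0.38) were also among the named falls, with the serotonin transporter *Slc6a4* (-6.73 ± 0.46), the erythroid and megakaryocytic factor *Gata1* (-6.48 ± 0.58), the progenitor receptor *Flt3* (-6.35 ± 0.56), *Rab44* (-6.88 ± 0.53), *Myom1* (-6.44 ± 0.30) and *Plac8*. The eosinophil granule gene *Prg2* had 15.3, 15.3 and 13.2 CPM in the controls and no count with IL-13, the monocyte marker *Ly6c2* 25.3, 29.1 and 26.0 CPM and 0.268, 0.0563 and 0.0515, and the collagen gene *Col1a1* 8.08, 8.70 and 10.4 CPM and no count.

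The counts by list stand against 29.0% of all genes raised and 31.1% lowered. Of 16 granulocyte genes 15 fell (93.8%) and none rose, and their summed level was 733 to 836 CPM in the controls and 50.3 to 54.2 with IL-13. For megakaryocytes and platelets 12 of 13 fell (92.3%) and none rose, from a sum of 670.0 to 712 CPM to one of 185 to 191. The granulocyte gene that was not called was *Mmp8*, with means of 22.6 and 20.9 CPM, and *Csf3r* made up most of the rest of the treated sum (27.7 CPM). Of 12 basophil, mast cell and eosinophil genes 11 fell (91.7%) and 1 rose (*Ccr3*), and the sum went from 59.1 to 66.8 CPM in the controls to 27.8 to 33.8 with IL-13, 5 of the 12 having no count there. Of 9 B cell genes 8 fell (88.9%), from a sum of 285 to 295 CPM to 169.0 to 190.1, and of 3 T and NK cell genes 3 fell, from 334 to 338 CPM to 191 to 222. Of 7 stromal and endothelial genes 5 fell (71.4%), from 39.5 to 49.0 CPM to 19.4 to 24.4. For monocytes 7 of 9 fell (77.8%), but the sum was 403 to 429 CPM in the controls and 419 to 514 with IL-13, *Fn1* and *Chil3* being members. For dendritic cells 9 of 11 fell (81.8%), with sums of 394 to 436 and 419 to 465 CPM, of which *Itgax* and *Bst2* made up most. Of 2 erythroid genes 1 fell, and the sums were 167 to 176 and 162 to 199 CPM. In all, 71 of 82 distinct markers of other cell types fell and 5 rose, and 59 of them were among the 788 genes below -2, which is 7.49%. Of 15 macrophage markers 6 rose (40%, against 29.0% of all genes) and 7 fell (46.7%, against 31.1%), and every IL-13 library had a lower sum than every control. The abundant *Lyz2* and *Ctsd* are members that fell, *Lyz2* with values that overlapped between the groups, so the sum does not stand for all members. The 7 became 3 to 4 without IL-13 replicate 2 or 3 or control replicate 2 or 3. In bulk RNA, fewer cells of a type and less RNA per cell cannot be told apart, and the part of such cells in the lowered genes was not tested. The IL-4 libraries had granulocyte sums of 63.4 to 69.9 CPM.

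**Figure D5:**
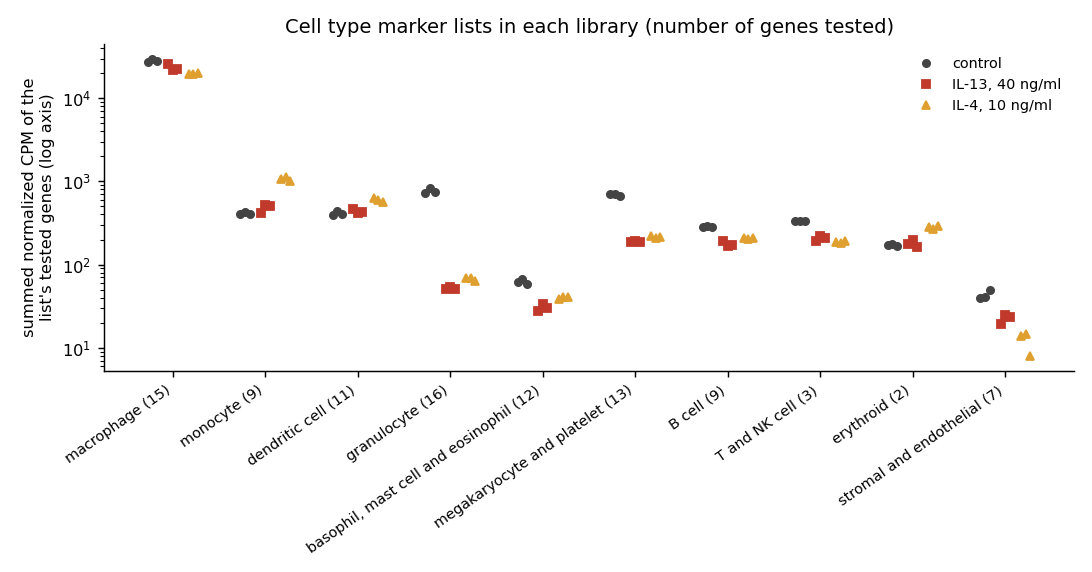
Summed normalized CPM (vertical log axis) of the tested genes of 10 cell type marker lists in each library of the control (circles), IL-13 (squares) and IL-4 (triangles) groups. The granulocyte sum is 733 to 836 in the controls and 50.3 to 54.2 with IL-13, and the macrophage sum is 27261 to 29785 in the controls and 22087 to 26086 with IL-13.

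IL-13 was last set against IL-4, whose dose was 10 ng/ml against 40 ng/ml, so that the 2 cytokines were not compared at matched doses. The M2 markers were lower with IL-13. *Retnla* was at 668, 765 and 753 CPM with IL-4, above every IL-13 library, and the log2 fold change of IL-13 over IL-4 was -3.83 ± 0.16 (adjusted p = 1.2e-09) and *Ccl24* was at 11.6, 13.4 and 12.6 (-3.42 ± 0.21). *Chil3*, which IL-13 did not move detectably, was at 537, 554 and 554 CPM with IL-4 (-1.53 ± 0.07, adjusted p = 5.1e-10). Of the 34 M2 markers 24 were lower and 2 higher with IL-13, both with all libraries and without IL-13 replicate 1, against 5.16% and 7.61% of all genes. The genes lowest relative to IL-4 also included *Tuba8* (-3.91 ± 0.26), *Rnase2a* (-3.75 ± 0.25), *Chil4* (-3.23 ± 0.36), *Msx3* (-2.89 ± 0.12), *Kcnd3* (-2.79 ± 0.19), *Tnfaip8l3* (-2.47 ± 0.36), *Slc7a14* (-2.45 ± 0.40) and *Gm15496* (-2.62 ± 0.37), an RNA on the strand opposite *Slc7a14*. Some other lists differed as well. Genes of ribosome biogenesis were lower with IL-13 in 21 of 51 cases and higher in 0, and those of ER stress and ATF4 lower in 9 of 38 and higher in 0. These counts also stand against 5.16% lower and 7.61% higher among all genes. For the TCA cycle and respiratory chain 3 of 71 were lower, near the share of all genes. That count was 30 without IL-13 replicate 1, where 1292 of all 14286 genes tested were lower.

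In other genes IL-13 gave the higher level. *Cx3cr1*, at 4.12, 6.09 and 5.89 CPM with IL-4, was higher with IL-13 (2.86 ± 0.14, adjusted p = 9.4e-10) although below the controls. *Dmpk* (5.67, 5.26 and 5.18 CPM with IL-4 and 23.6, 24.3 and 27.3 with IL-13, 2.22 ± 0.16), *Sncaip*, which encodes synphilin-1 (1.97 ± 0.17), the integrin gene *Itga8* (2.02 ± 0.34), *Ambp* (2.35 ± 0.53), *Gm6634* (2.23 ± 0.37) and *Rhobtb1* (1.98 ± 0.28) were raised by IL-13 and higher than with IL-4. Against the controls *Rhobtb1* was not called without IL-13 replicate 2 or 3 or control replicate 1 or 3 (adjusted p = 0.070 to 0.13), nor *Gm6634* without IL-13 replicate 3 (0.070) or control replicate 2 (0.078). The α1A-adrenoceptor *Adra1a* (2.30 ± 0.26), the collagen IV chain *Col4a2* (2.97 ± 0.44) and *Fcrl1* (1.95 ± 0.29) fell with IL-13 and were lower still with IL-4. Of 51 interferon-stimulated genes 13 were higher and 0 lower, of 68 mitotic genes 14 and 0, and of 34 scavenger and efferocytosis receptors 14 and 5. Over all genes 1060 were higher and 719 lower with IL-13 (7.61% and 5.16%). Of the 255 induced genes 68 were lower and 17 higher than with IL-4, and 170 were not called. The totals depended on single libraries: without IL-13 replicate 1, 2 or 3 there were 1623, 675 or 644 higher genes and 1292, 474 or 444 lower genes, and without IL-4 replicate 2 or 3 there were 663 or 647 higher.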

How the data were processed

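Bulk RNAseq of 15 libraries was used, 6 of them for the main comparison and the 3 IL-4 libraries for a second one. The authors deposited raw counts per gene, and per-sample FPKM lists in which FPKM is the count divided by gene length and library total. The submitters' processing notes name GRCm38, CASAVA, Bowtie2 2.2.3, HISAT2 2.1.0, TopHat2 and DESeq2 without roles; the counter, the annotation and strandedness are not given in the sources used here. Gene names were taken from the table and positions from GENCODE M21 (GRCm38). It is therefore not known whether reads were told apart for genes that overlap on opposite strands. Such pairs include *Cx3cr1* and *Wdr48*, *Cdc20* and *Elovl1*, *Ciita* and *Dexi*, *Col4a2* and *Col4a1*, and *Slc7a14* and *Gm15496*.

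Counts were fitted with edgeR 4.0.16 (R 4.3.3) by its quasi-likelihood test over all 15 libraries (10 residual df), after filterByExpr with a minimum count of 10 and TMM scaling, with Benjamini-Hochberg adjustment over 13938 genes and a threshold of 0.05. CPM values are TMM-normalized, "±" after a log2 fold change is the SE, and the FPKM values are given as mean ± SD. Ratios of genes with 1 to 3 counts in a group carry exact (Clopper-Pearson) intervals from the summed counts. Library totals were 17001352 to 18842203 in the 6 libraries. On simulated counts for IL-13 against control (13938 genes, 200 changed), 89 of 100 genes changed by 1 and 98 of 100 changed by 2 on the log2 scale were recovered and 11 others were called. The simulated means came from the control and IL-4 libraries. All groups shared the spread of a gene, without the larger spread of IL-13 or the length shift of its replicate 1. In the data 60.1% of genes were called, so these figures check the fit only and give no error rate for this comparison. Promoters are RefSeq's (GRCm38.p6), and 9984 of 13936 tested symbols matched one.

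Named genes are members of 40 lists, the 15 largest rises and falls without overlap, the 10 largest bounds for genes at or under 3 counts per library in a group, the 10 largest FPKM differences, and the 10 largest differences from IL-4 in each direction. The lists and genes were chosen with earlier results of these data known, so no p is given for a list. A few genes that the rule names are not reported here. The samples share only replicate numbers, and no column of a comparison by the authors was used. Alternatives were DESeq2 1.42.0, upper-quartile and RLE scaling, other count filters, a fit on the 6 libraries compared, a test against a log2 fold change of 2 (glmTreat), a replicate block and each replicate left out.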

Additional observations from a re-analysis of the deposited data

How the results depend on the processing

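The numbers of raised and lowered genes stayed within 1.5 times their value in all alternatives, with 3575 to 4537 raised and 3816 to 4418 lowered in other settings and 3703 to 4007 raised and 3694 to 4190 lowered when 1 replicate was left out. The tiers beyond 2 moved more. Induced genes numbered 167 with a minimum count of 50 (11288 genes tested) and 116 when tested against a log2 fold change of 2 itself, and 262 to 286 with 1 replicate left out. Repressed genes numbered 1184 without a filter (25254 genes tested), 445 with a minimum count of 50, 455 when tested against 2, and 828 to 932 with 1 replicate left out. Fewer or more genes tested is part of the construction of the filters, and other causes were not tested. Genes lower than with IL-4 numbered 1153 without a filter. With 1 replicate left out, genes higher than with IL-4 numbered 644 to 1623 and lower ones 444 to 1292, and members called over all lists 779 to 814 against 834. Upper-quartile scaling changed the share of higher genes among the IL-4 calls from 59.6% to 50.5%, and the share of raised genes among the control calls from 48.3% to 47.2%.

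Replicates with the same number did not deviate together: their correlations between control and IL-13 were -0.03, -0.05 and 0.01, so the numbers were not taken as pairs. A replicate block gave 3925 raised and 4210 lowered genes, 253 induced and 790 repressed, and 919 higher and 633 lower than with IL-4. Of the named genes, *Lyz2* (adjusted p = 0.065, edgeR's quasi-likelihood test) and *Rhobtb1* (0.051) lost their call against the controls under the block.

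Of 305 values of named genes, 289 kept direction and call in every setting in which they were tested, 43 alternative values lost a call, 2 gained one and 0 changed direction. Besides the changes given with the lists, counts moved by more than 1.5 times for iron genes raised (4 to 8) and platelet genes raised (0 to 1) without a filter, and for the secreted M2-type proteins raised (5 to 3) in the fit of the 6 libraries. With a minimum count of 50 the lowered genes went from 11 to 6 for basophils, mast cells and eosinophils, from 8 to 4 for B cells, from 5 to 3 for stromal cells and for complement, from 2 to 1 for ribosome biogenesis and from 1 to 0 for erythroid cells. The median of the transcription regulators, 0.02, was -0.04 without IL-13 replicate 2. The complement median, 0.05, was -0.02 without IL-13 replicate 1. Folds of genes with few counts in a group rest on single reads.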

Other observations

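Among markers of other lineages, *Kdr* and *Batf3* went against the direction of their lists, while *Cd4*, *Il7r* and *Siglech* fell. *Kdr*, which encodes a VEGF receptor of endothelial cells, was at 11.6, 11.7 and 15.5 CPM in the controls and 17.8, 22.9 and 22.3 with IL-13 (0.70 ± 0.17, edgeR's adjusted p = 0.0022), and was thus raised like *Flt1*. *Batf3*, a factor of dendritic cells, rose from 3.60, 3.60 and 3.59 to 5.68, 6.42 and 5.82 CPM (0.73 ± 0.14). *Cd4*, the T cell coreceptor, fell from 24.1, 29.6 and 27.6 to 0.321, 0.394 and 0.309 CPM (-6.29 ± 0.26), while *Il7r*, the IL-7 receptor, stayed among the well expressed genes at 313, 304 and 309.7 and 191, 221 and 209 CPM (-0.58 ± 0.06). The plasmacytoid dendritic cell marker *Siglech* had 5.63, 5.32 and 5.50 CPM in the controls and no count with IL-13, and was at least 34.0-fold lower.

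The list of chitinase-like, resistin-like and eosinophil-associated secreted proteins and related M2 enzymes had 11 tested members, of which 5 rose and 5 fell, 45.5% each against 29.0% and 31.1% of all genes. In a fit of the 6 libraries alone 9 were tested, 3 rose and 4 fell, and the median turned from 0.10 to -0.20 (-0.10 with a minimum count of 50). Beside *Retnla* and *Rnase2a*, *Rnase2b* rose, by a ratio of 13.8-fold (95% counting interval 3.48 to 119.6), from 2 control counts, and its reads cannot be told apart from those of near-identical copies with certainty. *Retnlg*, a resistin-like gene of neutrophils, had 2.97, 3.93 and 3.93 CPM in the controls and no count with IL-13, and was at least 22.4-fold lower, opposite to *Retnla*.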
